A study of Nematostella vectensis with 6 samples.

Results

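Among the gene models counted in polyps of the starlet sea anemone Nematostella vectensis, 205 of 24525 (0.836%) were at least 2-fold higher in animals undergoing physal pinching than in steady-state animals. They were chosen on CPM (the count of a gene model divided by all counts of its library, times 1000000). A member had a mean of at least 1 CPM over the 6 libraries, its lowest pinching library lay above its highest steady-state library, its mean in pinching libraries was at least 2 times its mean in steady-state libraries, and it was not among the 200 most abundant gene models. The last condition removed no candidate. Because the same libraries chose the members, their levels and ratios are given as a description, and no test of the difference between the groups is independent of the choice.

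Nematostella burrows with the rounded aboral end of its body column, the physa. In transverse fission a ring of the column above the physa constricts and stays constricted until the aboral piece comes away, and the piece then grows a mouth and tentacles and becomes a clone of its parent.

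Expression was measured by RNA sequencing in 3 pinching libraries, from polyps collected while the column was constricting, and in 3 steady-state libraries, from polyps that were not constricting; all animals were kept in gravel. The labels give the physa as the tissue and the same genotype entry, a reference genome rather than a strain, for all 6 libraries, and name no age or sex; their extraction text speaks of lysing whole animals. The methods describe pooled individuals and say that the stage of fission at collection was not known, so pinching libraries may stand at different stages. The design text also mentions time points, which no label ties to a library. In bulk RNA, fewer cells of a type and less RNA per cell cannot be told apart.

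Totals were 26381086 to 27343077 counts in pinching libraries and 22423447 to 23818796 in steady-state libraries. The 200 most abundant gene models took 39.5% of the counts in pinching replicate 2 and 42.0% to 42.2% in the other pinching libraries, against 41.1% to 42.9% in steady-state libraries. The rows of the count table carry identifiers without names, and 0 of the 24525 had a match in the RefSeq gene table of the jaNemVect1.1 assembly. No gene name, function, position or sequence could therefore be attached to a member, and the physa label could not be checked against marker genes. Members are called below by rank, rank 1 having the largest ratio of mean CPM, and identifiers are given for the member with the largest ratio and for the most abundant one.

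Of the 15658 gene models with a mean of at least 1 CPM, 3798 had all 3 pinching values above all 3 steady-state values (24.3%) and 1371 had all 3 below. Only 5.40% of the 3798 reached a 2-fold ratio and so became members. The mirror-image rule found 609 gene models at least 2-fold lower in pinching libraries, 44.4% of the 1371. Gene models that were higher in pinching libraries without overlap were thus mostly under 2-fold apart.

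The split between higher and lower gene models moved with the scaling of the libraries. With TMM factors, which scale libraries by the bulk of their genes, 2926 gene models were higher without overlap (18.7%) and 1802 lower; with DESeq2's size factors, 2540 were higher (16.2%) and 2132 lower. The share of higher ones among them was 73.5% with column sums, 61.9% with TMM and 54.4% with DESeq2's factors. Of the 205 members, 173 met the whole rule with TMM and 149 with DESeq2's factors, and their smallest ratio was 1.91 and 1.86 under those scalings.

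**Figure D1:**
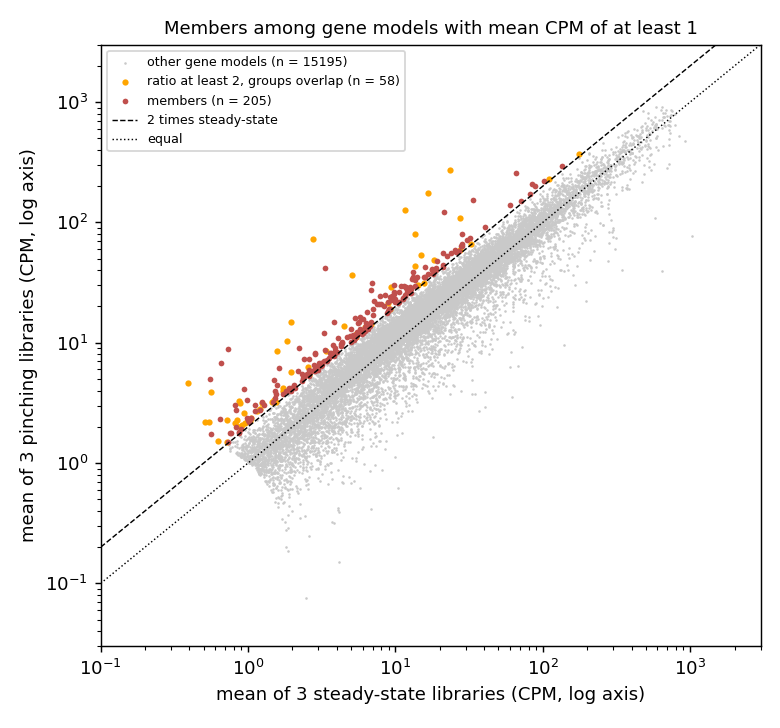
Mean CPM in the 3 pinching libraries (vertical, log axis) against the 3 steady-state libraries (horizontal, log axis) for gene models with a mean of at least 1 CPM, without the 200 most abundant. The 205 members (red) lie above the dashed 2-fold line, 58 gene models past that line whose groups overlap are orange, and the 15195 others are grey; 1 of these, with a pinching mean below the axis, is not drawn.

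Ratios among the members ran from 2.00 to 12.5 with a median of 2.27. A ratio under 2.5 was found in 144 members (70.2%), a ratio from 2.5 to under 3 in 36, and a ratio of at least 3 in 25, of which 10 reached 4. The threshold fell in a dense part of the distribution, since 41 members had a ratio under 2.1 and 63 gene models that did not overlap lay between 1.9 and 2. The member just inside had 10.3, 12.5 and 8.85 CPM in pinching replicates 1, 2 and 3, against 5.50, 7.27 and 3.01 CPM in steady-state replicates 1, 2 and 3, a ratio of 2.00. The gene model just outside had 15.5, 27.6 and 14.2 CPM in the pinching libraries, against 11.3, 8.25 and 9.12 CPM in the steady-state libraries. Nothing in these values sets the 2 gene models apart other than the threshold.

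Members were mostly of low to middling abundance. Mean levels in pinching libraries reached 293 CPM with a median of 12.1 CPM, and in steady-state libraries from 0.552 to 135 CPM with a median of 5.42 CPM. By mean over all libraries, 67 members lay under 5 CPM, 90 from 5 to under 20 CPM, 41 from 20 to under 100 CPM and 7 at 100 CPM or more. They made up 1.94% of all gene models in the lowest of these classes and 0.553% in the highest, counted without the 200 most abundant. Ratio and level were nearly unrelated over the 205 members (Spearman's rho 0.085, a description over gene models that share 6 libraries), with median ratios of 2.23, 2.24, 2.34 and 2.17 from the lowest class to the highest. No member had a count of 0 in any library. Counts per member and library ran from 3 to 13126, 97 members had at least 100 counts in every library and 6 had fewer than 10 in some library.

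At the floor, the lowest member had 1.33, 1.72 and 1.46 CPM in pinching libraries, against 0.630, 1.03 and 0.531 CPM in steady-state libraries. The nearest gene model below it had 1.25, 1.27 and 1.32 CPM in pinching libraries, against 0.588, 0.446 and 0.797 CPM in steady-state libraries. In all, 110 gene models that met the other conditions lay below the floor.

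The 3 pinching libraries did not carry the members equally. The members took 0.504%, 0.660% and 0.451% of the counts in pinching replicates 1, 2 and 3, against 0.244%, 0.234% and 0.176% in steady-state replicates 1, 2 and 3. The means were 0.538% ± 0.109 in pinching and 0.218% ± 0.0368 in steady-state libraries (SD, n = 3 each), a ratio of 2.46. The highest pinching library stood 3.74 times above the lowest steady-state library, and the lowest pinching library 1.84 times above the highest steady-state library. Pinching replicate 2 was the high end and steady-state replicate 3 the low end.

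The same held gene by gene. Pinching replicate 2 was the highest pinching library in 157 members (76.6%), replicate 3 in 25 and replicate 1 in 23; over the 15458 gene models past the floor and below the 200 most abundant, replicate 2 was highest in 44.3%. The members shared this with the wider set of gene models that were higher without overlap, since among 3791 of these, again below the 200 most abundant, replicate 2 was highest in 69.1%. Pinching replicate 3 was the lowest pinching library in 125 members (61.0%), in 49.1% of the 3791 and in 41.8% of the 15458. Among steady-state libraries, replicate 1 was highest in 112 members (54.6%), in 38.7% of the 3791 and in 29.6% of the 15458. Steady-state replicate 3 was lowest in 136 members (66.3%), in 54.6% of the 3791 and in 30.3% of the 15458. Pinching replicate 2 was also the library in which the most abundant gene models took the smallest share of counts; the part of this in the members' values was not tested.

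**Figure D2:**
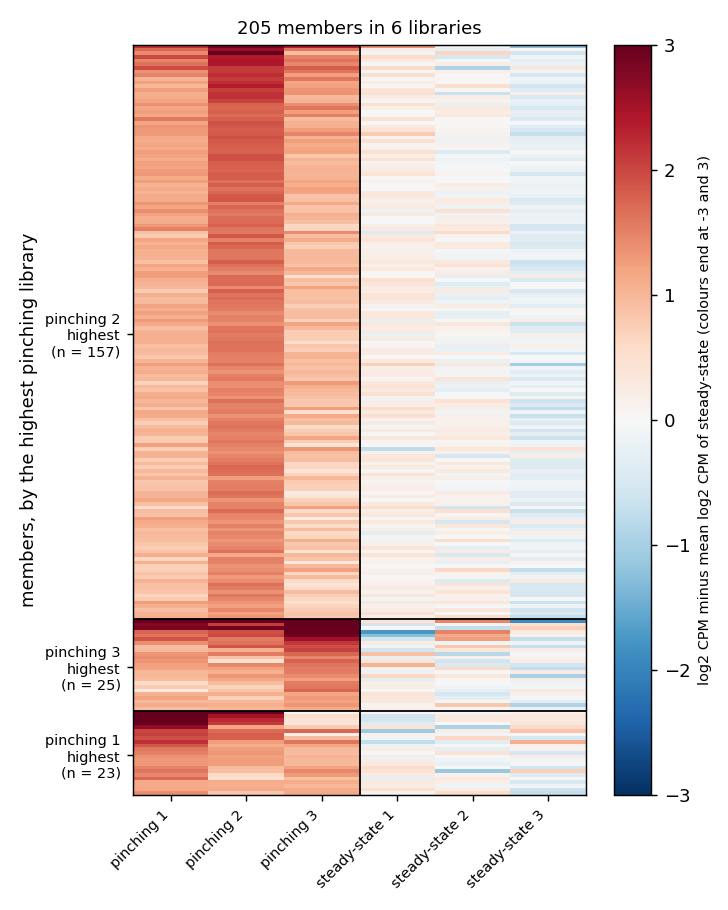
Each row is 1 of the 205 members and each column a library; colour is log2 CPM minus the member's mean log2 CPM over the 3 steady-state libraries. Rows are grouped by the pinching library with the highest level (157, 25 and 23 members), and within the largest group the pinching replicate 2 column is the darkest while replicates 1 and 3 are paler.

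Set against the steady-state mean of each member, pinching replicate 2 was at least 2-fold higher in 191 members, replicate 1 in 131 and replicate 3 in 87. All 3 pinching libraries passed 2-fold in 57 members, 2 did in 90 and 1 alone did in 58. The median fold over the steady-state mean was 2.09, 2.89 and 1.95 for pinching replicates 1, 2 and 3. Pinching replicate 3 stayed under 1.5-fold in 23 members, against 3 members each for replicates 1 and 2.

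**Figure D3:**
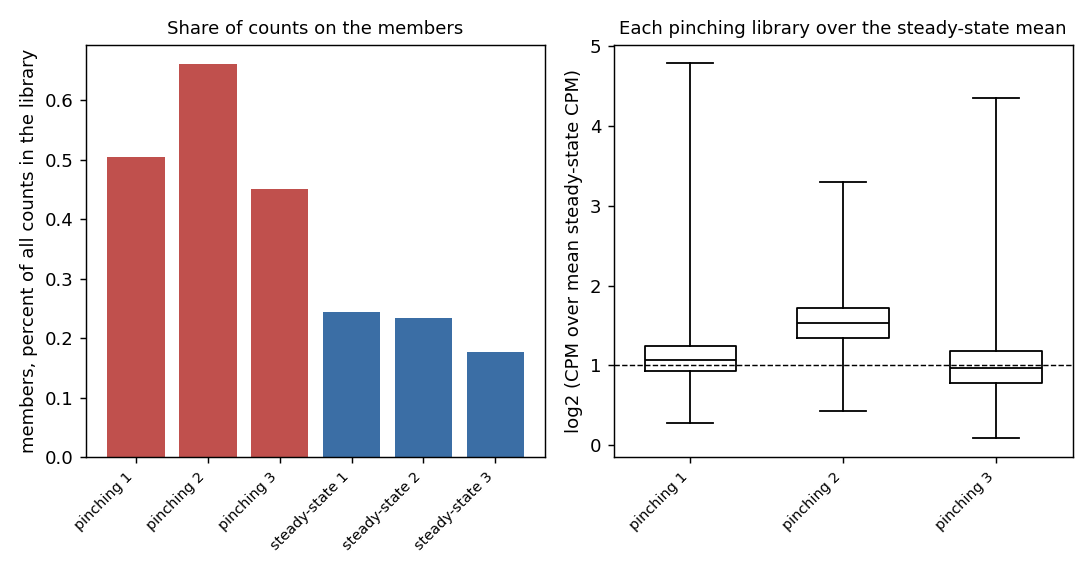
Left, the percentage of all counts in each library that fell on the members, from 0.451% to 0.660% in pinching and from 0.176% to 0.244% in steady-state libraries. Right, log2 of each member's CPM in a pinching library over its mean steady-state CPM, with boxes for the quartiles and median, whiskers to the lowest and highest member and a dashed line at 2-fold; the box of pinching replicate 2 lies wholly above the line.

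The spread of the members inside the groups was wider than that of all gene models past the floor, but not than that of the mirror-image set. The median coefficient of variation of the members was 28.1% over the pinching and 22.5% over the steady-state libraries (n = 3 each); over all gene models past the floor the medians were 12.3% and 18.6%. Among the 609 gene models at least 2-fold lower they were 28.5% over the pinching and 40.2% over the steady-state libraries, and among the 3791 higher without overlap 9.69% and 11.5%. The rule acted on these same values, so the spread of the members is a description of what it chose. The lowest pinching library stood a median of 1.47 times above the highest steady-state library. This gap was smaller than 1.1-fold in 14 members and at least 2-fold in 12. It exceeded the fold spread inside both groups in 57 members.

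The largest ratios belonged to members with unlike patterns. The member with the largest ratio, NV2g021556000.1, had 91.4, 29.6 and 3.51 CPM in pinching replicates 1, 2 and 3, against 3.19, 3.26 and 3.50 CPM in steady-state replicates 1, 2 and 3. Its ratio of 12.5 thus came from replicates 1 and 2, and replicate 3 stood at the steady-state level, above it by a factor of 1.004, the smallest gap of any member. The means were 41.5 ± 45.2 CPM in pinching and 3.31 ± 0.161 CPM in steady-state libraries (SD, n = 3 each). On the TMM scale its log2 fold change was 3.58 (standard error 0.95), which did not pass edgeR's quasi-likelihood test (Benjamini-Hochberg adjusted p = 0.159), whereas DESeq2's Wald test gave an adjusted p of 0.0204.

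Ranks 5, 6 and 7 had the same shape, ranks 5 and 6 at higher levels than rank 1 and rank 7 at a lower one. Rank 5 had 220, 117 and 30.0 CPM in pinching replicates 1, 2 and 3, against 13.5, 25.1 and 25.8 CPM in the steady-state libraries. Rank 6 had 264, 154 and 42.1 CPM in pinching libraries, against 22.2, 40.2 and 38.2 CPM in steady-state libraries. Rank 7 had 56.0, 29.2 and 8.81 CPM in pinching libraries, against 5.29, 6.91 and 8.67 CPM in steady-state libraries. In each the lowest pinching value was that of replicate 3, between 1.02 and 1.16 times the highest steady-state value, so the separation of the groups was narrow although the ratios were 5.71, 4.57 and 4.50.

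Ranks 2, 3 and 4 showed another shape, with pinching replicate 3 highest and every pinching library well above every steady-state one. Rank 2 had 6.48, 7.15 and 13.1 CPM in pinching libraries, against 0.672, 1.38 and 0.133 CPM in steady-state libraries. Rank 3 had 4.21, 2.66 and 13.4 CPM in pinching libraries, against 0.420, 0.669 and 0.885 CPM in steady-state libraries. Rank 4 had 3.64, 3.82 and 7.50 CPM in pinching libraries, against 0.504, 0.312 and 0.841 CPM in steady-state libraries. Their lowest pinching values were 4.69, 3.00 and 4.33 times their highest steady-state values, the widest gaps of all members. Steady-state levels here rested on few counts, from 3 to 31 per library.

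Pinching replicate 3 was at least 1.5 times both other pinching libraries in 10 members, among them ranks 2, 3, 4, 10 and 11. Rank 10 had 16.1, 18.4 and 48.5 CPM in pinching libraries, against 1.43, 13.4 and 5.71 CPM in steady-state libraries. Its steady-state libraries differed among themselves by more than its groups did at their nearest point. Rank 11 had 9.44, 12.3 and 23.1 CPM in pinching libraries, against 1.30, 6.73 and 3.41 CPM in steady-state libraries.

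Ranks 8, 9 and 12 peaked in pinching replicate 2, the commonest shape. Rank 8 had 3.30, 5.24 and 3.73 CPM in pinching libraries, against 1.85, 0.669 and 0.310 CPM in steady-state libraries. Rank 9 had 7.20, 13.1 and 6.62 CPM in pinching libraries, against 2.60, 1.83 and 2.21 CPM in steady-state libraries. Rank 12 had 165, 491 and 119 CPM in pinching libraries, against 58.5, 97.9 and 42.4 CPM in steady-state libraries. Only rank 9 kept its groups more than 2-fold apart at the nearest point, at 2.54-fold. Pinching replicate 2 was at least 1.5 times both other pinching libraries in 59 members (28.8%), and in 2.07% of all gene models past the floor. The rule used the pinching mean, which 1 high library raises, so the 2 shares are not alike in selection and are a description.

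**Figure D4:**
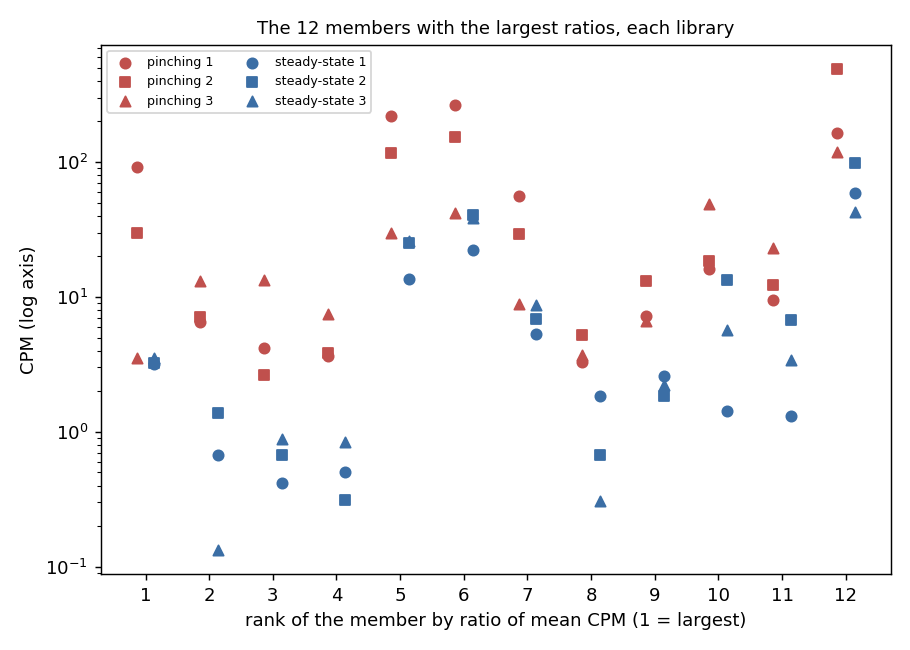
CPM (log axis) in each of the 6 libraries for the 12 members with the largest ratios, ranked from left to right; red symbols are pinching and blue symbols steady-state libraries, and symbol shape is the replicate number. Ranks 1, 5, 6 and 7 have a red triangle (pinching replicate 3) at the blue points, whereas in ranks 2, 3 and 4 all red points lie far above the blue ones.

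Members were also split by their highest pinching library. Leaving out the library that defined a group lowers each ratio in it by construction, so the values without it are a description. The 157 members with pinching replicate 2 highest had a median ratio of 2.24 and at most 4.34; without that library the median was 1.94 and 63 of them stayed at 2 or more. In the 25 members with replicate 3 highest the median ratio was 2.36, the largest 12.2, and 16 stayed at 2 or more without it. In the 23 with replicate 1 highest the median was 2.34, the largest 12.5, and 19 stayed at 2 or more without it. Of the 10 largest ratios, 4 were in each of the smaller groups and 2 in the group of 157.

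The most abundant members differed from the members with the largest ratios. The most abundant, NV2g004645000.1, rank 142 by ratio, had 244, 307 and 328 CPM in pinching replicates 1, 2 and 3, against 188, 154 and 62.8 CPM in steady-state replicates 1, 2 and 3. Its means were 293 ± 43.6 CPM in pinching and 135 ± 64.9 CPM in steady-state libraries (SD, n = 3 each) and its ratio was 2.17. Its log2 fold change was 1.06 (standard error 0.39) with a Benjamini-Hochberg adjusted p of 0.219 by edgeR and 0.0847 by DESeq2. Steady-state replicate 3 was its lowest library by far, and without steady-state replicate 3 the log2 fold change was 0.65.

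Among the members next in level, the pinching libraries were far apart in some and close in others. The second by level (rank 12) and the seventh (rank 6), both described above, differed 4.14-fold and 6.27-fold between their highest and lowest pinching libraries, and the third and the sixth 1.76-fold and 1.78-fold. The fourth by level, rank 64 by ratio, had 207, 233 and 181 CPM in pinching libraries, against 93.5, 96.0 and 62.2 CPM in steady-state libraries. The fifth, rank 106, had 186, 219 and 194 CPM in pinching libraries, against 106, 106 and 54.1 CPM in steady-state libraries. The eighth, rank 155, had 144, 168 and 139 CPM in pinching libraries, against 78.8, 78.5 and 55.5 CPM in steady-state libraries. In each of these 3 the pinching libraries lay within 1.3-fold of one another and steady-state replicate 3 was the lowest of all.

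Some members carried consecutive identifiers. There were 6 runs holding 14 members, 1 run of 4 and the others of 2, and for 8 of the 200 members whose next identifier was listed that identifier was a member too, while members were 0.836% of all gene models. Among the 609 gene models of the mirror-image rule this share was 15.7%, where they were 2.48% of all. All 14 had pinching replicate 2 as their highest pinching library. In the run of 4 the ratios were 2.51, 2.62, 2.45 and 2.60, at levels that differed widely between the gene models, from 62.2 CPM down to 3.33 CPM in pinching replicate 2. A pair among the largest ratios, ranks 19 and 22, had ratios of 3.29 and 3.10, and a pair among the most abundant was the fourth and the eighth by level, described above. Whether the numbering follows genome position is not given in the sources used here, and how the deposited counts were made is not stated, so reads shared between similar or overlapping neighbours cannot be told apart from separate expression.

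For the contrast as a whole, edgeR's quasi-likelihood test with TMM scaling called 2 of 21345 tested gene models higher in pinching libraries at an adjusted p of at most 0.1 (0.00937%), and both were members, ranks 4 and 58 by ratio. Rank 58, singled out after its values were seen, had 13.2, 17.4 and 12.7 CPM in pinching libraries, against 6.09, 5.62 and 5.09 CPM in steady-state libraries, with narrow spread in both groups. All 205 members were tested, their median log2 fold change was 1.14, against 0.01 over all tested gene models, and their adjusted p-values ran from 0.0972 to 0.277. At an unadjusted p under 0.05, 203 members were counted beside 9.38% of all tested gene models. DESeq2's Wald test called 186 members at the same adjusted threshold, beside 4.22% of the 16362 gene models it gave an adjusted p. With the replicate number as a further term, edgeR called 99 members, beside 0.707% of all tested gene models. Since the rule used this contrast, these counts describe the members and nothing is read from them. The 19 members DESeq2 did not call had adjusted p-values from 0.103 to 0.244, and 14 of them had a mean under 5 CPM.

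Membership depended on single libraries. Leaving out a member's highest pinching or lowest steady-state library lowers its ratio by construction, so these counts are a description. Without pinching replicate 2, 111 of the 205 members still met the rule and the total number of gene models meeting it was 132; without steady-state replicate 3, 145 members did. Without any one of the other libraries, 192 to 198 members did. The total was 255 and 386 in the absence of pinching replicates 1 and 3. It was 311, 336 and 210 in the absence of steady-state replicates 1, 2 and 3. With a library fewer, the no-overlap condition is easier to meet. There were 85 members that met the rule whichever library was left out, and 81 of them also met it under both other scalings. Those 81 had ratios from 2.19 to 12.2 with a median of 2.63, a median level of 10.7 CPM over all libraries, and pinching replicate 2 as the highest pinching library in 59. They were picked for keeping a 2-fold ratio throughout, so larger ratios than those of all members follow from the pick.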

How the data were processed

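Counts came from 3 pinching and 3 steady-state libraries of single-end RNA sequencing. Per the study's methods, the authors mapped reads with STAR (2.7.3a in the submitters' notes) to Nvec200 and removed PCR duplicates. The deposited table held counts per gene model, treated here as raw. The methods do not say whether the deposited counts were normalized or filtered. The methods name RSEM 1.3.0 for TPM values; whether it also made the deposited counts, and the strand setting, are not given in the sources used here. No authors' comparison and no unused column was in the table, and each row named a gene model.

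Groups and replicate numbers were taken from the deposited sample descriptions. The labels do not say that libraries came from separate animals or cultures. The methods give n = 3 pooled individuals per treatment, without saying whether each library was a separate pool. The p-values therefore measure only the spread between these libraries. CPM used column sums over all 24525 gene models. Gene models whose counts added up to 3 or more were tested (21345), in R 4.3.3. The main test was that of edgeR 4.0.16 (TMM, quasi-likelihood, group as the only term), with DESeq2 1.42.0 (Wald test) as an alternative. The study itself compared these groups with DESeq2 and Wald comparisons at a cut-off of 0.1. Benjamini-Hochberg adjusted p-values of at most 0.1 over all tested gene models were called. Standard errors for edgeR were derived from the F statistic. The scripts were tested on simulated counts.

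The rule for identifiers printed was the member with the largest ratio and at least 1 count in every library, and the member with the highest pinching mean. Lists of named pathways and cell types had been set out but could not be used, since no identifier was paired with a name. The members, rules and lists were chosen with earlier results of these data known. Alternatives covered scaling, floor, ratio, test, filter, threshold, replicate block and leaving out each library; DESeq2 with the block or with a library left out was added after the data were seen.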

Additional observations from a re-analysis of the deposited data

How the results depend on the processing

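The number of gene models meeting the rule, 205, was 174 with TMM and 150 with DESeq2's size factors, 315 with no floor on mean CPM, 1158 at a ratio of 1.5 and 25 at a ratio of 3, and ranged from 132 to 386 with 1 library left out. The number of members that edgeR called higher was 2; it was 186 with DESeq2's Wald test, 5 with library size alone, 30 with no filter on low counts, 0 with filterByExpr (202 members at an unadjusted p under 0.05), 0 at a threshold of 0.05, and 0 to 39 with 1 library left out. The 39 came without steady-state replicate 1, and each of the other 5 left-out libraries gave 0, with 172 to 200 members at an unadjusted p under 0.05 in edgeR. In those 5 fits, 778 to 2593 of all tested gene models were higher at that p. The members were chosen on this contrast, so nothing is read from these counts. DESeq2 called 136, 87 and 165 members without pinching replicates 1, 2 and 3, and 165, 186 and 126 without steady-state replicates 1, 2 and 3. Over all tested gene models edgeR called 2 higher; this was 690 with DESeq2, 6 with library size alone, 32 without the filter, 0 with filterByExpr (1639 at an unadjusted p under 0.05), 0 at 0.05, and 0 to 58 with 1 library left out. The DESeq2 count was 281, 123 and 495 without pinching replicates 1, 2 and 3, and 635, 1383 and 383 without steady-state replicates 1, 2 and 3. What caused these differences was not tested.

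In a fit with a replicate block edgeR called 99 members and 151 gene models in all (0.707%), and DESeq2 169 and 510. Deviations from the group mean correlated at 0.0632, 0.258 and -0.0417 over genes between libraries of like number (1, 2 and 3). Pinching replicate 1 correlated best with steady-state replicate 3, at 0.2576, beside 0.2584 for the like-numbered replicates 2. Deviations inside a group of 3 add up to 0, so these values cannot decide whether libraries were paired. The labels tie no replicate number to a shared animal, day or batch, so libraries were not treated as pairs.

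The members' median log2 fold change stayed between 0.97 and 1.24 under the edgeR alternatives and DESeq2 with all libraries. It was not computed for DESeq2 with the block or with a library left out. Computed without the 200 most abundant gene models, the members' mean share of counts was 0.913% in pinching and 0.379% in steady-state libraries. The log2 fold change with 1 library left out ranged from 2.21 to 4.12 for NV2g021556000.1 and from 0.65 to 1.35 for NV2g004645000.1, and both passed the threshold only with DESeq2 among these alternatives. Depth limits most the 6 members with fewer than 10 counts in some library.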

Other observations

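A further 58 gene models had a mean of at least 1 CPM and a ratio of at least 2 but were not members, because a pinching library lay at or below a steady-state one. In 42 of them this was a single pinching library, and in 35 of these it was pinching replicate 3. Pinching replicate 1 was the highest pinching library in 36 of the 58 and replicate 3 the lowest in 47. In 33 of them (56.9%) replicate 1 was highest, replicate 3 lowest and the difference at least 2-fold. This shape was found in 4.06% of all gene models past the floor. Among the members it was found in 3.41%, namely ranks 1, 5, 6 and 7 and 3 others. The 58 combine a high pinching mean with an overlap, which favours a wide spread inside the pinching group, so their share is a description.

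Ratios in this overlapping group reached 26.3, above that of any member. The gene model with that ratio had 162, 54.3 and 1.61 CPM in pinching replicates 1, 2 and 3, against 3.15, 1.47 and 3.67 CPM in steady-state replicates 1, 2 and 3. The most abundant of the 10 largest had 596, 218 and 10.2 CPM in pinching libraries, against 32.9, 9.68 and 28.2 CPM in steady-state libraries. Another had 270, 101 and 11.4 CPM in pinching libraries, against 9.40, 12.3 and 13.0 CPM in steady-state libraries. In these 3 gene models, pinching replicates 1 and 2 stood far above all steady-state libraries and replicate 3 lay among them. Not all of the 10 largest were like this. The sixth had 37.8, 6.85 and 0.219 CPM in pinching libraries, against 0, 0 and 5.84 CPM in steady-state libraries. The tenth had 26.6, 4.04 and 0.110 CPM in pinching libraries, against 0, 0.178 and 5.31 CPM in steady-state libraries. In both, steady-state replicate 3 stood far above the other steady-state libraries. Leaving out a library makes the no-overlap condition easier to meet. Without pinching replicates 1, 2 and 3 the number of gene models meeting the rule was 255, 132 and 386, against 205 with all libraries. Without steady-state replicates 1, 2 and 3 this number was 311, 336 and 210. The stage of fission of each library was not known, and its part in these values was not tested.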
